A study of Mus musculus with 12 samples.

Results

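The genes described here are 10 genes of the stress response of the endoplasmic reticulum (ER), chosen by name as ER chaperones and known targets of the transcription factors XBP1 and ATF6. They are Hspa5, Hsp90b1, Pdia4, Sdf2l1 and Creld2 (chaperones and folding enzymes), Dnajb9 and Dnajc3 (J-domain co-chaperones), Xbp1 itself, and Herpud1 and Edem1 (degradation of misfolded ER proteins). Each symbol matched a single identifier among the 55487 in the count files, and all 10 passed the filter on low counts and were tested together with 13535 genes in all.

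RNA sequencing was applied to primary hepatocytes of the mouse kept in culture, with 12 libraries in 4 groups of 3. Control cells received neither pretreatment nor FAC, and FAC cells received FAC alone. The labels use FAC only in this short form. The Lip-1+FAC group was pretreated on day 2 of culture with liproxstatin-1, which scavenges lipid reactive oxygen species (ROS), and then received FAC. The MT+FAC group was pretreated on the same day with Mito-TEMPO, which scavenges mitochondrial ROS, and then received FAC. The labels give no strain, sex, age, dose or duration. No group received a scavenger without FAC, so an effect of a scavenger on its own and an effect on the response to FAC cannot be told apart. It is not stated whether replicates came from separate animals or cultures, so p-values measure only the spread between these libraries, which may be technical.

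The ER folds and modifies proteins that a cell secretes, and hepatocytes, which make most plasma proteins, carry a heavy load of them. When unfolded proteins accumulate, the sensors IRE1 (gene Ern1), ATF6 and PERK (gene Eif2ak3) are released from the chaperone BiP (gene Hspa5). IRE1 splices Xbp1 mRNA, which yields the active XBP1 factor, while ATF6 travels to the Golgi and is cut by the proteases encoded by Mbtps1 and Mbtps2. XBP1 and ATF6 then raise chaperones and degradation factors through short promoter elements, and PERK raises the factor ATF4 and its targets by way of translation. The counts are per gene, so spliced and unspliced Xbp1 mRNA were not distinguished.

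The promoters are shown because the elements in them are what the 10 genes are known for. All 10 matched the RefSeq promoter table of GRCm38.p6, whose windows run from 250 bases before to 50 bases after an annotated start. The ER stress response element (ERSE) was searched as CCAAT, any 9 bases and CCACG, and ERSE-II as ATTGG, any single base and CCACG, on both strands. ERSE was found in 39 of 32851 windows (0.119%) and ERSE-II in 12 (0.0365%). Counted by gene, over any window of a gene, the shares were 0.137% and 0.0444%. Among the 10 genes, Hspa5, Hsp90b1, Creld2 and Dnajc3 held ERSE and Herpud1 held ERSE-II. The genes were picked as known targets, so these counts are a description. In the stretches below, read 5′ to 3′ on the strand of the gene, capitals mark the fixed letters of the element or of its reverse complement.
Hspa5 (chr2:34772025-34772043, plus strand, ERSE): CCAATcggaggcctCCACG
Hsp90b1 (chr10:86705510-86705691, minus strand, ERSE on both strands): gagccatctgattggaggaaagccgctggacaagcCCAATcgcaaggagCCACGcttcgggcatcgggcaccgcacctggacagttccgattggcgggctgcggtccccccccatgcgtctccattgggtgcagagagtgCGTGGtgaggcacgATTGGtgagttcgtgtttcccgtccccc
Creld2 (chr15:88819485-88819573, plus strand, ERSE on the opposite strand): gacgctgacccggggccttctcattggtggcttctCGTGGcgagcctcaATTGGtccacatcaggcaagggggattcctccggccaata
Dnajc3 (chr14:118937792-118937880, plus strand, ERSE): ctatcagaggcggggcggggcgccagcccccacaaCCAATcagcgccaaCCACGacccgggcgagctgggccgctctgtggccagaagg
Herpud1 (chr8:94386342-94386422, plus strand, ERSE-II): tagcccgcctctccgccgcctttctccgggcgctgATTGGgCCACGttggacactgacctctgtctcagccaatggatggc

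The Hspa5 element lay 65 to 47 bases before the RefSeq start, within an annotated exon of another transcript, that of Dnajc3 105 to 87 bases and that of Herpud1 52 to 42 bases before it. Hsp90b1 carried ERSE at 212 to 194 bases and again, in the other orientation, at 107 to 89 bases before its start. The core of the unfolded protein response element, TGACGTGG, was found in 0.676% of all windows, or for 0.714% of genes, and for none of the 10. Also by gene, the 5 letters CCACG alone, which are part of both elements, were present for 9 of the 10, beside 35.5% of all genes with a window. CCAAT alone, the NF-Y box, was present for 9 of the 10, beside 41.1%. Xbp1 held neither. No match says only that these letters are not in this window.

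**Figure D1:**
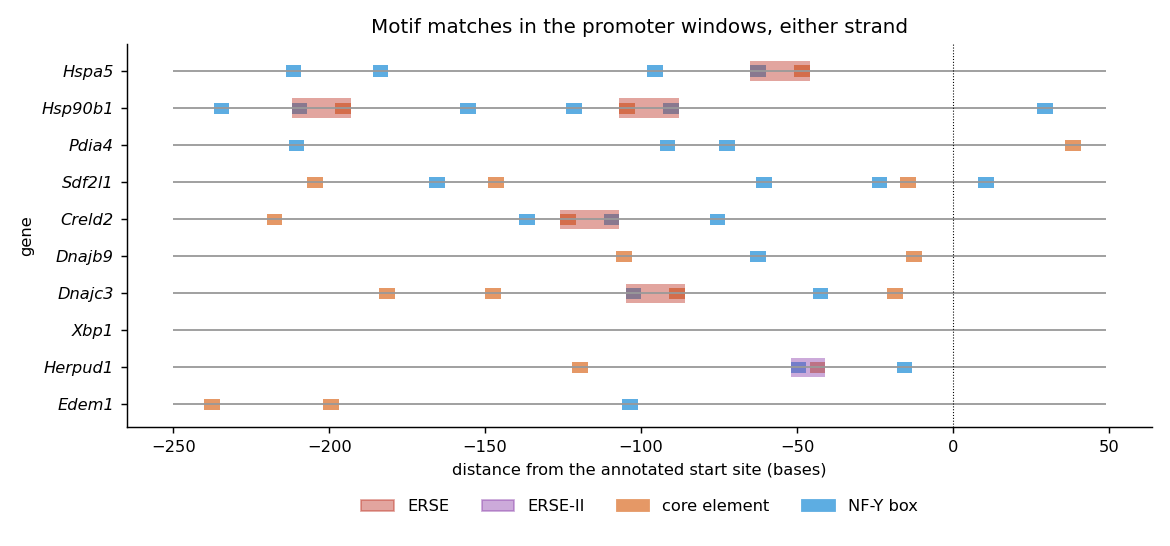
Matches to ERSE, ERSE-II, their shared 5-letter core element and the NF-Y box in the promoter window of each gene, drawn to scale by distance in bases from the annotated start site, either strand. ERSE appears in Hspa5, Hsp90b1 (2 matches), Creld2 and Dnajc3, ERSE-II in Herpud1, and no element in Xbp1.

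Between 22991598 and 31683376 reads per library were assigned to genes in 11 libraries, and 52529278 in FAC replicate 2. The deposited table of that library alone carries the mark comb, which the labels do not explain, so what its greater depth stands for is not known. The lowest count of any of the 10 genes in a library was 223, for Sdf2l1, and the highest was 100710, for Hspa5. All 8 hepatocyte markers were well expressed, with a summed level of 19282 to 19834 CPM (counts scaled to library size) in control, 18062 to 18656 in FAC, 14506 to 15636 in Lip-1+FAC and 14996 to 16401 in MT+FAC. Alb made up the largest part of these sums, and the markers did not all follow them. In FAC against control Cps1 (-1.25 on the log2 scale) and Fgb (-0.38) were called lower and 0 of the 8 higher. Against FAC, Cps1 was called higher in Lip-1+FAC and MT+FAC (0.54 and 0.57), whereas 6 and 5 of the other markers were called lower, Serpina1a at -1.34 and -1.38. Summed markers of stellate cells were 6.47 to 11.2 CPM in control and 16.6 to 17.4 CPM in FAC, and Reln made up most of each sum, while Lrat had at most 12 counts in a library. They were 5.16 to 6.81 CPM in Lip-1+FAC and 6.78 to 7.50 CPM in MT+FAC. Summed markers of cholangiocytes were 58.5 to 68.9 CPM in control and 98.3 to 123 CPM in FAC, 109 to 125 CPM in Lip-1+FAC and 104 to 145 CPM in MT+FAC. Here too the sum hid opposite moves: Krt19, Krt7, Epcam and Sox9 were called higher in FAC than in control and lower in both pretreated groups than in FAC, Sox9 at 1.62, -2.15 and -1.83, while Spp1 was called higher in the pretreated groups, at 1.22 and 1.24. Sinusoidal endothelial markers summed to 33.0 to 34.4 CPM in control, 32.0 to 33.0 in FAC, 23.8 to 25.3 in Lip-1+FAC and 24.2 to 28.2 in MT+FAC. Stab2 made up most of these sums and was called lower in both pretreated groups than in FAC, at -0.57 and -0.46. The other 3 tested markers of that list were not called, with Kdr at 0.61 and 0.28, Pecam1 at 0.27 and 0.20 and Lyve1 at -0.23 and -0.12. Kupffer cell markers summed to 4.46 to 7.55 CPM over all libraries. Of these, Clec4f was called lower in FAC than in control (-1.08) and higher in MT+FAC than in FAC (1.16), while Cd5l, which was not called, stood at 1.02 and -0.67. The lymphocyte genes Cd3e, Ms4a1 and Nkg7 were at 0 in every library. The part of these shifts in the results was not tested, and in bulk samples fewer cells of a type and less RNA per cell cannot be told apart.

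Between genes, levels were compared per kilobase of annotated exon (RPKM). In control cells Hspa5, which encodes BiP, the main ER chaperone of the HSP70 family, stood highest at 353 ± 10.6 RPKM (SD, n = 3, as for the values that follow). Herpud1, a membrane component of the ER degradation machinery, was at 236 ± 5.06 RPKM and Xbp1 at 109 ± 1.70 RPKM. Pdia4, a disulfide isomerase, was at 59.4 ± 4.01 RPKM, and the co-chaperone Dnajc3 at 54.8 ± 0.948 RPKM, a gap smaller than the sum of their SDs. Hsp90b1 (GRP94, the HSP90 of the ER) was at 44.4 ± 1.53 RPKM, Edem1 at 35.3 ± 1.19 RPKM and Creld2 at 28.8 ± 2.54 RPKM. Dnajb9 (ERdj4) and Sdf2l1 were lowest, at 17.3 ± 2.29 and 12.9 ± 0.59 RPKM. In FAC cells Dnajb9, at 28.6 ± 2.17 RPKM, stood above Creld2, at 21.5 ± 1.19 RPKM. The level of Hsp90b1 is uncertain, because 15.7% of its exonic bases overlap other genes, from which the unstranded counts cannot tell it apart.

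The first comparison, FAC with control, asks how FAC alone changed these genes. They did not move together: Dnajb9 and Hspa5 rose, whereas Pdia4, Herpud1, Creld2, Hsp90b1 and Xbp1 fell. With 7 of 10 called at an adjusted p under 0.05, against 36.6% of all genes tested, 2 were higher (17.5% of all genes) and 5 lower (19.1% of all genes). The median log2 fold change of the 10 was -0.20, beside -0.01 over all genes. No change reached a factor of 2, a size reached by no member in any comparison described here.

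Dnajb9 (ENSMUSG00000014905, GRCm38 chromosome 12, 44205559 to 44210326) encodes a BiP co-chaperone that is also known to hold IRE1 in check. Its normalized counts were 50.3, 43.1 and 38.8 CPM in the control libraries and 77.9, 74.1 and 67.0 CPM in the FAC libraries. All FAC libraries were above all control libraries, and Dnajb9 rose by 0.73 on the log2 scale (SE 0.0884, edgeR adjusted p = 5.27e-06), a factor of 1.66. Hspa5 (ENSMUSG00000026864, chromosome 2, 34771970 to 34777547) stood at 1505, 1531 and 1444 CPM in control and at 1810.3, 1928 and 1674 CPM in FAC. Again the groups did not overlap, and Hspa5 rose by 0.27 on the log2 scale (SE 0.0707, edgeR adjusted p = 0.00549).

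Pdia4 (ENSMUSG00000025823, chromosome 6, 47796141 to 47813430) fell furthest. Its libraries were at 138, 153 and 136 CPM in control and at 97.7, 96.7 and 103 CPM in FAC. It fell by 0.52 on the log2 scale (SE 0.0626, edgeR adjusted p = 4.76e-06). Herpud1 (ENSMUSG00000031770, chromosome 8, 94386438 to 94395377) was at 541, 564 and 547 CPM in control and at 415, 430.4 and 363 CPM in FAC. It fell by 0.45 on the log2 scale (SE 0.0645, edgeR adjusted p = 3.09e-05). Creld2 (ENSMUSG00000023272, chromosome 15, 88819646 to 88826683), an ER protein with EGF-like repeats that is strongly induced by ER stress, stood at 39.9, 35.6 and 42.5 CPM in control and at 30.3, 30.4 and 27.5 CPM in FAC. The groups of all 3 genes were separate, and Creld2 fell by 0.42 on the log2 scale (SE 0.0843, edgeR adjusted p = 0.000786).

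Hsp90b1 (ENSMUSG00000020048, chromosome 10, 86690209 to 86705509) was at 185, 173 and 179.6 CPM in control and at 147.2, 155 and 153 CPM in FAC, and fell by 0.24 on the log2 scale (SE 0.051, edgeR adjusted p = 0.00126). The smallest called fall was that of Xbp1 (ENSMUSG00000020484, chromosome 11, 5520659 to 5525893), the factor behind many of the other genes. Its libraries were at 352, 358 and 347 CPM in control and at 303, 314 and 313 CPM in FAC, and it fell by 0.18 on the log2 scale (SE 0.0485, edgeR adjusted p = 0.00588). A fit that corrected for the GC content and length of transcripts gave -0.08, which was not called.

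The other members were not called. Sdf2l1 (ENSMUSG00000022769, chromosome 16, 17130138 to 17132383), a partner of ER chaperone complexes, changed by -0.22 (SE 0.128, edgeR adjusted p = 0.199). Dnajc3 (ENSMUSG00000022136, chromosome 14, 118937976 to 118981697), known as P58IPK, an inhibitor of PERK, changed by -0.11 (SE 0.0492, edgeR adjusted p = 0.0985). Corrected for GC content and length, Dnajc3 was called at -0.15. Edem1 (ENSMUSG00000030104, chromosome 6, 108828641 to 108859356), a lectin that passes misfolded glycoproteins to degradation, changed by 0.03 (SE 0.0482, edgeR adjusted p = 0.657). The FAC and control libraries of Sdf2l1 and Dnajc3 did not overlap, so that 9 of the 10 genes were separate between the groups, against 46.2% of all genes. Of the genes with a promoter element, Hspa5 (ERSE) was higher in FAC, and Hsp90b1 and Creld2 (ERSE) and Herpud1 (ERSE-II) were lower. Dnajc3 (ERSE) was not called. Dnajb9, the gene that moved most, held neither ERSE nor ERSE-II in its window. The part of the elements in these changes was not tested.

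**Figure D2:**
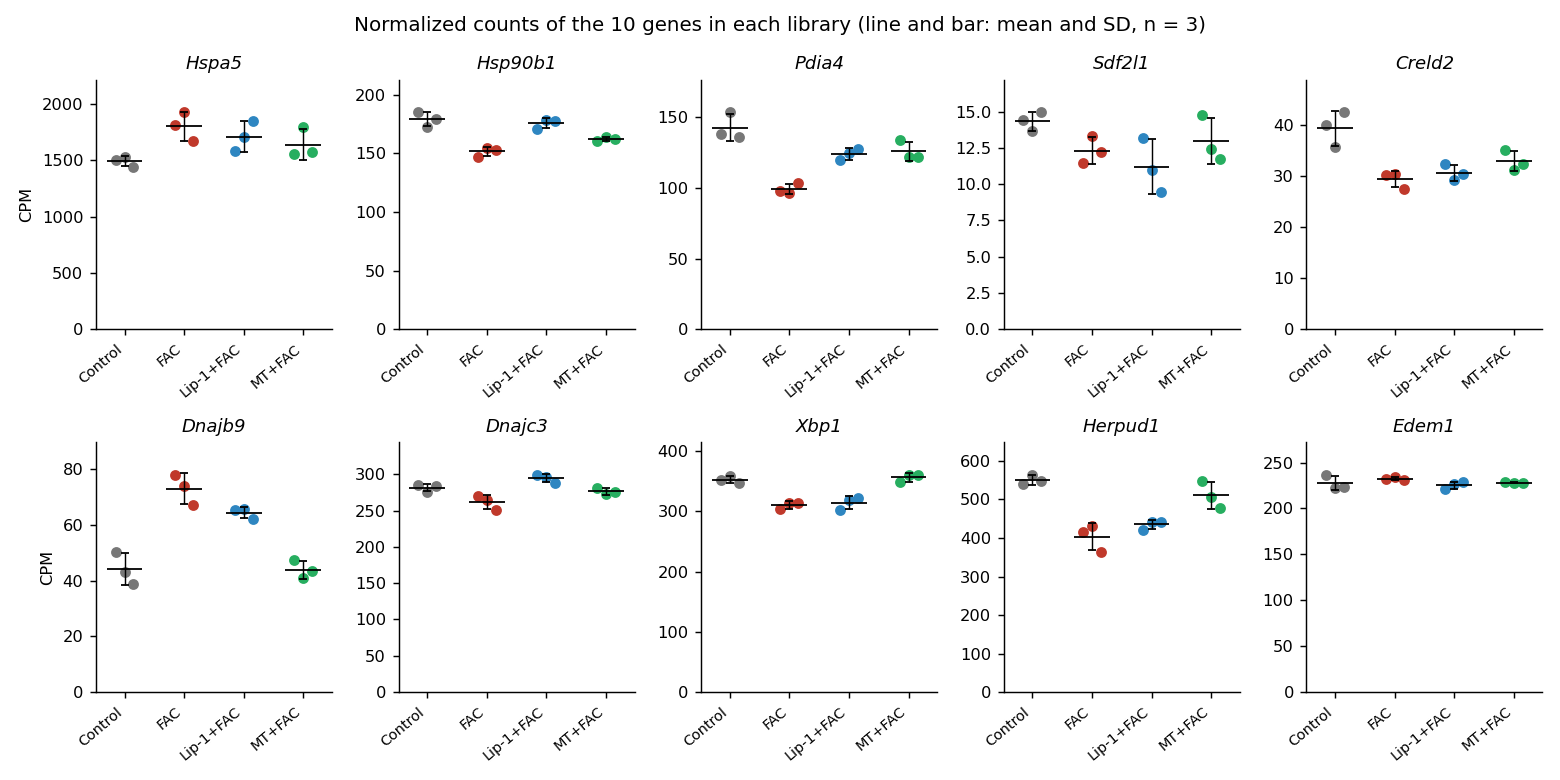
Normalized counts (CPM, axis from 0) of the 10 genes in every library of the 4 groups, with the group mean and SD (n = 3). Dnajb9 stands above control in FAC and Lip-1+FAC and at 41.1 to 47.5 CPM in MT+FAC, while Pdia4 and Herpud1 have their lowest means in FAC, 99.2 and 403 CPM.

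Other genes of the pathway were taken from 5 lists written from general knowledge, with earlier results of these data known. Of the 81 genes listed, 80 were tested, and 15 were called higher and 17 lower in FAC, beside 36.6% of all genes (17.5% higher and 19.1% lower). Their median log2 fold change was -0.04. The mRNAs of all 3 sensors rose. Ern1 was at 32.3, 37.3 and 27.3 CPM in control and at 51.2, 50.5 and 47.4 CPM in FAC, and rose by 0.62 on the log2 scale (SE 0.105, edgeR adjusted p = 0.000183). Atf6 rose by 0.53 (SE 0.0749) and Eif2ak3 by 0.47 (SE 0.112), on the log2 scale. Of the exonic bases of Eif2ak3, 8.05% overlap a gene on the opposite strand. The other called genes of that list, named after their values were seen, went down: Mbtps1, the protease that makes the first cut in ATF6, by a log2 fold change of -0.29 and Rtcb, the ligase that joins spliced Xbp1 mRNA, by -0.26. Corrected for GC content and length they stood at -0.44 and -0.16, both still called.

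In the PERK-ATF4 arm 7 of 8 genes were called higher and 0 lower, with a median log2 fold change of 0.66. PERK activity was not measured, here or in the comparisons below, so the name of this list does not say what moved its genes. Ddit3 (CHOP, a factor linked to cell death) rose by 1.07, but its counts are uncertain. The annotation gives this symbol to 2 overlapping identifiers, of which ENSMUSG00000025408 was used, and 10.9% of its exonic bases overlap other genes. The sum of the stranded columns gave 0.56. Ppp1r15a (GADD34, which restores translation) rose by 1.04 (SE 0.0704, edgeR adjusted p = 7.95e-09), from 86.2, 75.2 and 92.0 CPM in control to 181, 177 and 162 CPM in FAC. By contrast, 10 of the 27 genes for translocation, glycosylation and export were lower and 0 higher, with a median log2 fold change of -0.10. The signal peptidase gene Spcs2 changed by -0.72 (SE 0.0686) and the coat gene Sec31a by -0.30 (SE 0.0623).

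Among 22 other chaperones and folding enzymes 2 were called higher and 3 lower. The oxidase gene Ero1l rose by 0.49 (SE 0.0926), and Txndc11, a thioredoxin-like protein, fell by 0.52 (SE 0.0842). Of the 16 tested genes of ER-associated degradation, 3 were higher and 2 lower, among them Edem3 at 0.32 (SE 0.0736), or 0.20 when corrected for GC content and length. These lists were described by counts and medians only, without a test of the list.

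**Figure D3:**
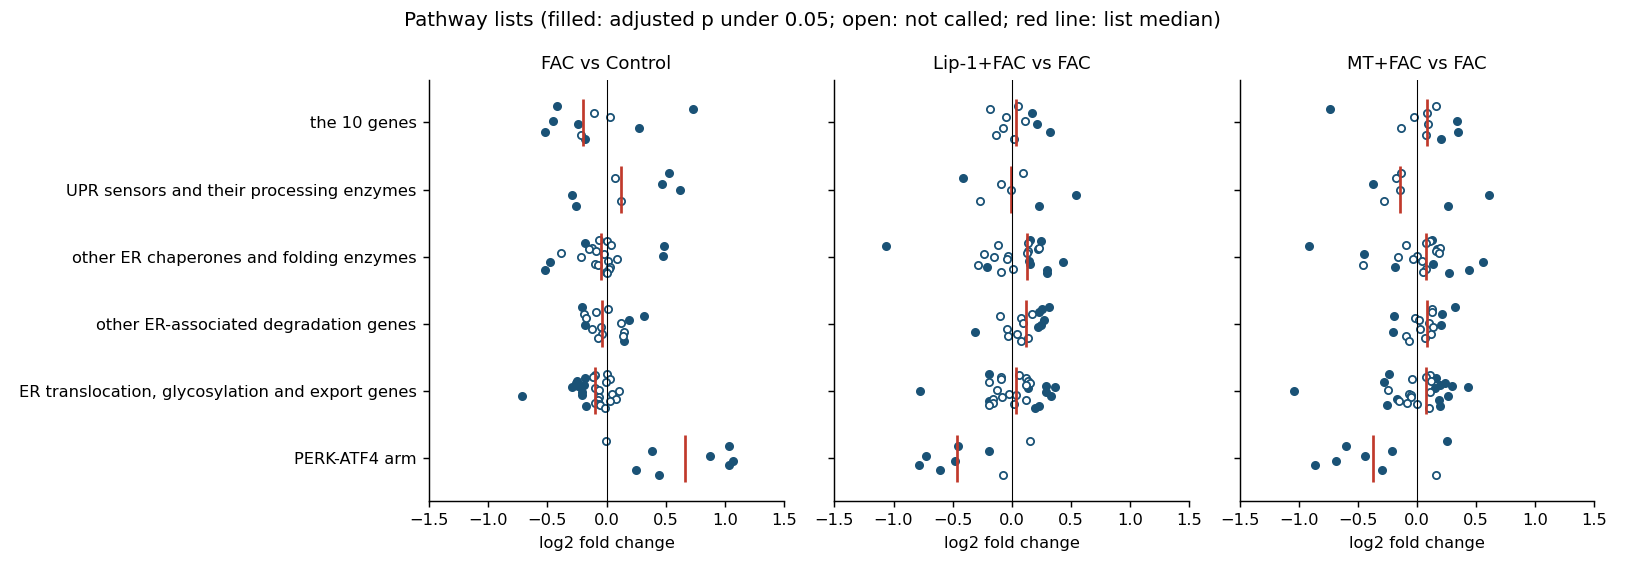
Log2 fold changes of the 10 genes and of 80 tested genes in 5 pathway lists, for FAC against control and for both pretreatments against FAC; a point is a gene, filled where it was called, and a red line is the median of the list. The median of the PERK-ATF4 arm is 0.66 in FAC against control, -0.47 in Lip-1+FAC against FAC and -0.37 in MT+FAC against FAC, while that of the 10 genes is -0.20, 0.04 and 0.09.

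Lip-1+FAC was then compared with FAC, to see how a scavenger of lipid ROS altered these genes in FAC-treated cells. This comparison and the one before it share the FAC libraries. Pdia4, Hsp90b1 and Dnajc3 were called higher with liproxstatin-1, and no member was called lower. The 3 of 10 called compare with 39.9% of all genes (20.7% higher and 19.2% lower), a share near the background. The groups did not overlap for 5 members, 3 higher and 2 lower, against 50.8% of all genes (26.4% higher and 24.4% lower). The median of the 10 was 0.04 on the log2 scale, beside 0.00 over all genes.

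Pdia4 stood at 119.5, 125 and 128 CPM in Lip-1+FAC, above every FAC library and below every control library. Its log2 fold change against FAC was 0.32 (SE 0.0626, edgeR adjusted p = 0.000497). Hsp90b1 was at 171, 179 and 177 CPM, within the range of 173 to 185 CPM in control apart from the lowest library, and differed from FAC by 0.21 (SE 0.051, edgeR adjusted p = 0.00312). Dnajc3 was at 299, 297 and 288 CPM, above the 269.6, 264 and 251 CPM of FAC, and rose by 0.17 on the log2 scale (SE 0.0492, edgeR adjusted p = 0.0097). Corrected for GC content and length, Hsp90b1 stood at 0.04 and Dnajc3 at 0.03, and neither was called. In the same fit Hspa5, Dnajb9 and Edem1 were called lower, at -0.24, -0.33 and -0.15.

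Dnajb9 was at 65.3, 65.8 and 62.2 CPM in Lip-1+FAC, each below the lowest FAC library at 67.0 CPM. Its difference from FAC, -0.18 on the log2 scale (SE 0.0871, edgeR adjusted p = 0.107), did not pass the test. Hspa5 was at 1580.2, 1704 and 1853 CPM, a range that overlaps that of FAC, with a log2 fold change of -0.08 (SE 0.0706). Herpud1, at 422, 442 and 441 CPM, differed by 0.11 (SE 0.0644, edgeR adjusted p = 0.186). Creld2, Xbp1, Edem1 and Sdf2l1 were not called, with log2 fold changes from -0.14 for Sdf2l1 to 0.06 for Creld2.

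Of the 80 other pathway genes, 23 were higher and 13 lower with liproxstatin-1, beside 20.7% and 19.2% of all genes, with a median log2 fold change of 0.05. None of the 3 sensors was called, Ern1 at -0.00, Atf6 at 0.09 and Eif2ak3 at -0.09. Without FAC replicate 3, Eif2ak3 was called lower, at -0.24. Mbtps1, named after its values were seen, rose by 0.54 (SE 0.0563), to 107, 104 and 114 CPM. Of the PERK-ATF4 arm, 6 of 8 genes were lower and 0 higher, Ppp1r15a by a log2 fold change of -0.79 and Chac1, a glutathione-degrading enzyme, by -0.72. Among other chaperones and folding enzymes 8 were higher and 2 lower. Ero1l fell by 1.06 on the log2 scale (SE 0.0936, edgeR adjusted p = 4.94e-07), to 161, 171 and 189 CPM, below all control libraries, whose lowest was 232 CPM. The disulfide isomerase gene Pdia5 rose by 0.43 (SE 0.0683). Of the degradation genes 6 were higher and 1 lower, with Syvn1, a ubiquitin ligase of the pathway, at -0.32. Translocation, glycosylation and export genes went both ways, 7 higher and 3 lower. Among them were Sec31a at 0.37 and Sec61g at -0.77, whose counts are uncertain because a pseudogene, Gm10177, holds 420 aligned bases at 100% identity.

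MT+FAC was compared with FAC in the same way, for a scavenger of mitochondrial ROS. Dnajb9 was lower with Mito-TEMPO, and Pdia4, Herpud1 and Xbp1 were higher. The 4 of 10 called, 3 higher and 1 lower, compare with 40.9% of all genes (21.2% higher and 19.7% lower), again near the background. The groups did not overlap for 8 members, 6 higher and 2 lower, against 52.9% of all genes (27.1% higher and 25.7% lower). The median of the 10 was 0.09, beside 0.00 over all genes.

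Dnajb9 stood at 47.5, 41.1 and 43.3 CPM in MT+FAC, all below the lowest FAC library and within the range of 38.8 to 50.3 CPM in control. It fell by 0.73 on the log2 scale against FAC (SE 0.0881, edgeR adjusted p = 4.76e-06). The log2 fold change lay between -0.82 and -0.69 under the alternatives run, which all called it. Pdia4 was at 134, 122 and 122 CPM and rose by 0.34 (SE 0.0626, edgeR adjusted p = 0.0003). Herpud1 was at 548, 506 and 477 CPM and also rose by 0.34 (SE 0.0644, edgeR adjusted p = 0.00042). Xbp1 was at 348, 360.2 and 360.2 CPM, above all FAC libraries and around the control level, and rose by 0.20 on the log2 scale (SE 0.0484, edgeR adjusted p = 0.00323).

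The other 6 members were not called. Creld2 differed by 0.16 (SE 0.0843) and Hspa5 by -0.14 (SE 0.0706). Corrected for GC content and length both were called, at 0.23 and -0.27, and Hspa5 was also called without MT+FAC replicate 2, at -0.22. Hsp90b1, Dnajc3, Sdf2l1 and Edem1 changed by 0.09, 0.08, 0.08 and -0.03 on the log2 scale. Hsp90b1 was called with the stranded columns summed, at 0.16, the upper end of its range under the alternatives, whose lower end was -0.02.

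Of the other pathway genes, 21 were higher and 17 lower, beside 21.2% and 19.7% of all genes, with a median log2 fold change of 0.05. Leaving out FAC replicate 1 reduced the number of calls to 24, and leaving out MT+FAC replicate 2 to 25. Calls over all genes fell as well in these fits, from 5541 to 4656 and 4765. In the PERK-ATF4 arm 6 genes were lower and 1 higher, with Ppp1r15a at -0.87 (SE 0.0699) and Ddit3 at -0.68 (SE 0.113), or -0.36 with the stranded columns summed. Among the sensors Eif2ak3 fell by 0.37 (SE 0.111, edgeR adjusted p = 0.0157), from 98.7, 85.9 and 65.0 CPM in FAC to 67.7, 65.1 and 60.8 CPM. That call was lost without FAC replicate 1 (-0.24), without FAC replicate 2 (-0.34) and without MT+FAC replicate 3 (-0.33), and in other settings. Ern1 and Atf6 were not called, at -0.14 and -0.13, although Atf6 was called without FAC replicate 3, at -0.22, and after the correction for GC content and length, at -0.17. Mbtps1 rose by 0.61 (SE 0.0562), to 115, 111 and 114 CPM.

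Ero1l fell by 0.91 (SE 0.0932) and Pdia5 rose by 0.56 (SE 0.0681), within a list of chaperones and folding enzymes with 6 genes higher and 3 lower. For degradation genes the counts were 3 higher and 2 lower, with Edem2 at 0.21. The call of Edem2 was lost in 5 of the 6 fits that left out a library and after the correction for GC content and length, at 0.16. Translocation, glycosylation and export genes had 9 members higher and 5 lower, with Sec31a at 0.43 and Sec61g at -1.04.

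**Figure D4:**
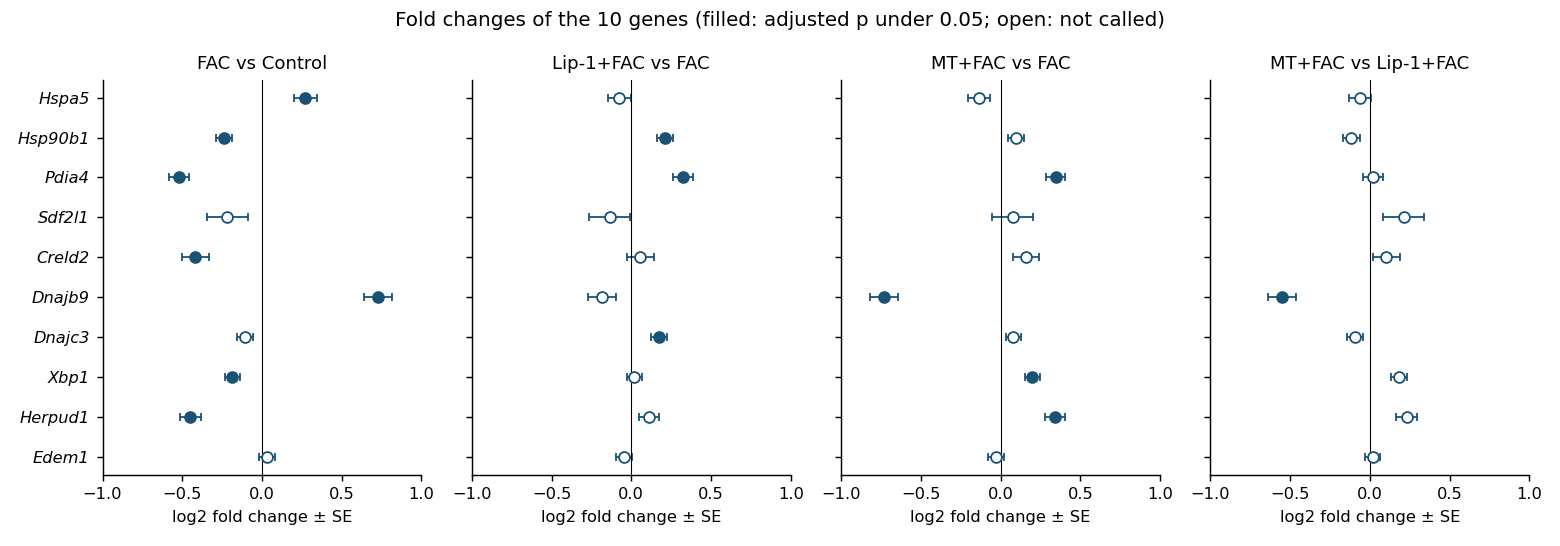
Log2 fold changes with their standard errors for the 10 genes in 4 comparisons, filled where the adjusted p was under 0.05. Dnajb9 is at 0.73 in FAC against control, -0.18 in Lip-1+FAC against FAC, -0.73 in MT+FAC against FAC and -0.55 in MT+FAC against Lip-1+FAC.

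The pretreatments were compared directly, MT+FAC with Lip-1+FAC, and of the 10 members edgeR called only Dnajb9. It was lower with Mito-TEMPO, at -0.55 on the log2 scale (SE 0.0885, edgeR adjusted p = 0.00252), a factor of 1.46, and the lowest Lip-1+FAC library, at 62.2 CPM, lay above the highest MT+FAC library, at 47.5 CPM. This 1 call of 10 compares with 1.34% of all genes (0.465% higher and 0.879% lower). The groups did not overlap for 5 members, 2 higher and 3 lower, against 19.8% of all genes (10.2% higher and 9.60% lower). The difference lay between -0.61 and -0.49 under all alternatives run, and each of them called it.

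Herpud1 and Xbp1 were higher in every MT+FAC library than in any Lip-1+FAC library. Their log2 fold changes of 0.23 (SE 0.0644, edgeR adjusted p = 0.0848) and 0.18 (SE 0.0485, edgeR adjusted p = 0.0722) did not pass the test. DESeq2 called both, with adjusted p-values of 0.043 and 0.011. Hsp90b1 and Dnajc3 differed by -0.12 and -0.09, Creld2 by 0.10 and Sdf2l1 by 0.21, and these genes, Hspa5, Pdia4 and Edem1 did not pass the test. Of the 80 other pathway genes edgeR called 0, with 13 at an unadjusted p under 0.05, and DESeq2 called 2. The sensors Ern1, Atf6 and Eif2ak3 stood at -0.14, -0.23 and -0.28 and were not called, although a fit of the pretreated libraries alone called Atf6 and Eif2ak3, as did one without the filter on low counts for Eif2ak3.

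**Figure D5:**
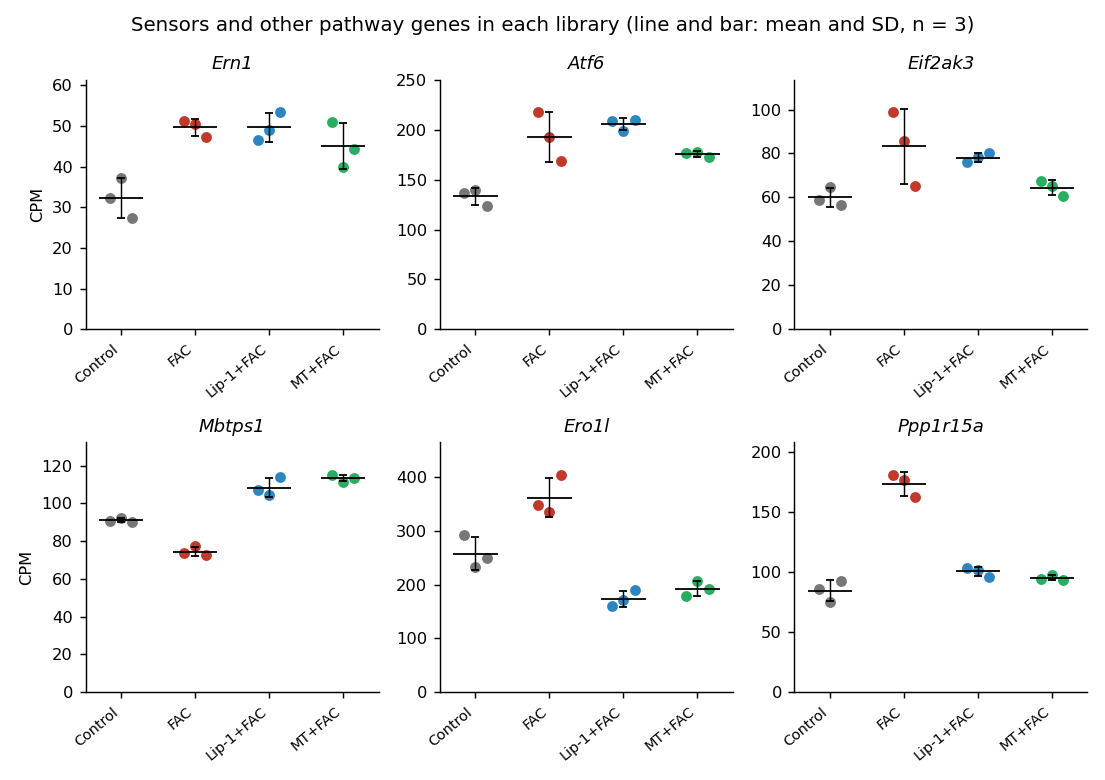
Normalized counts (CPM, axis from 0) of the sensors Ern1, Atf6 and Eif2ak3, the ATF6 protease gene Mbtps1, the oxidase gene Ero1l and Ppp1r15a of the PERK-ATF4 arm in every library, with group means and SD (n = 3). Ern1 and Atf6 are above control in all 3 FAC-treated groups, whereas Ero1l is at 334 to 404 CPM in FAC and at 161 to 207 CPM in the pretreated groups.

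Lip-1+FAC and MT+FAC were each compared with control, in comparisons that share the control libraries. In Lip-1+FAC 7 of 10 members were called, 2 higher and 5 lower, against 30.2% of all genes (15.4% higher and 14.8% lower), with Dnajb9 and Hspa5 higher and Creld2, Sdf2l1, Herpud1, Pdia4 and Xbp1 lower. Dnajb9 was 0.55 above control (SE 0.0888, edgeR adjusted p = 0.000144), Creld2 at -0.36 (SE 0.0847) and Herpud1 at -0.34 (SE 0.0645). Pdia4 and Xbp1 stood at -0.20 and -0.17. The groups did not overlap for 8 members, 3 higher and 5 lower, against 43.3% of all genes (21.4% higher and 22.0% lower). The number called fell to between 3 and 5 when a library was left out, 3 without control replicate 2 and 4 without Lip-1+FAC replicate 2. Calls over all genes fell as well, from 4089 to between 3233 and 3876, with 3876 and 3448 in the fits just named. The calls of Hspa5, at 0.20, and Sdf2l1, at -0.35, were each lost in 5 of those 6 fits, that of Pdia4 in 3 and that of Xbp1 in 2. Corrected for GC content and length, Creld2 (-0.15), Xbp1 (-0.06), Hspa5 (0.10) and Sdf2l1 (-0.09) were not called, Herpud1 stood at -0.22, and Edem1 was called lower, at -0.22. The call of Sdf2l1 was also lost with RLE scaling, without the filter on low counts, with only these groups in the fit, with the stranded columns summed and in thinned libraries. That of Hspa5 was also lost with upper-quartile scaling and at a mean of at least 5 CPM, and that of Xbp1 without the filter.

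In MT+FAC 1 of 10 members was called against control, Creld2 at -0.26 (SE 0.0842, edgeR adjusted p = 0.0376), against 19.8% of all genes (9.71% higher and 10.1% lower). The groups did not overlap for 4 members, 1 higher and 3 lower, against 38.2% of all genes (19.0% higher and 19.2% lower). That call was lost without control replicate 1 or 3 and without MT+FAC replicate 2 or 3, with Creld2 between -0.25 and -0.20. It was also lost without the filter on low counts, with only these groups in the fit, in thinned libraries, and after the correction for GC content and length, where Creld2 stood at -0.09. Dnajb9 was at -0.00 (SE 0.0893), Xbp1 at 0.01 (SE 0.0484) and Edem1 at 0.00 (SE 0.0483). Pdia4, at -0.18, and Hsp90b1, at -0.14, had adjusted p-values of 0.0521 and 0.0546. Both were called by upper-quartile scaling and after the correction for GC content and length, which also called Edem1 lower, at -0.17.

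Cell type markers moved in these comparisons too, and their part in the member calls was not tested. All 8 hepatocyte markers were called lower in Lip-1+FAC than in control, from -0.21 for Alb to -1.01 for Serpina1a. In MT+FAC 6 of the 8 were called lower and 0 higher, with Alb at -0.17 and Hnf4a at -0.24 not called. Stab2 and Reln were called lower and Spp1 higher in both groups, and Krt19 and Sox9 were called lower in Lip-1+FAC.

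The mRNAs of the sensors were set against control as well. Ern1 stood 0.62 (SE 0.106) above control in Lip-1+FAC and 0.48 (SE 0.106) in MT+FAC, and Atf6 0.62 (SE 0.075) and 0.40 (SE 0.0749), all called by edgeR. Corrected for GC content and length, Atf6 stood at 0.38 and 0.20 and Ern1 at 0.32 in MT+FAC, still called. Eif2ak3 was called in Lip-1+FAC, at 0.38, and lost that call without control replicate 1 or 3 or without Lip-1+FAC replicate 3. In MT+FAC it was not called, at 0.10. Mbtps1 was above control in Lip-1+FAC and MT+FAC, at 0.25 and 0.32, and neither call held after the correction for GC content and length, at 0.07 and 0.14. Of the other pathway genes, 20 were higher and 9 lower than control in Lip-1+FAC, beside 15.4% and 14.8% of all genes. In MT+FAC 13 were higher and 9 lower, beside 9.71% and 10.1% of all genes, 22 calls in all, and leaving out MT+FAC replicate 2 left 11, and control replicate 1 or 3 left 14. Calls over all genes fell as well, from 2684 to 1948 without MT+FAC replicate 2 and to 1794 and 1924 without control replicate 1 or 3. Hyou1, a large chaperone of the ER, was above control in Lip-1+FAC and MT+FAC, by 0.45 (SE 0.113) and 0.48 (SE 0.113). Spcs2, at -0.39 and -0.46, and Sec61g, at -0.66 and -0.93, were below control in these groups. Ero1l was lower in Lip-1+FAC, at -0.57, and Fkbp2, of the chaperone and folding list, in MT+FAC, at -0.47. Trib3 of the PERK-ATF4 arm was 0.60 (SE 0.0648) above control in MT+FAC, and Atf3 stood 0.57 and 0.43 above it in Lip-1+FAC and MT+FAC.

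Over the 12 libraries the members varied in opposite ways. Pearson correlations of log2 CPM between members, given as a description over libraries that share their groups and scaling, ran from -0.93 for Xbp1 with Dnajb9 to 0.84 for Xbp1 with Herpud1. Herpud1 also ran with Creld2 (0.83) and Pdia4 (0.82), and Hsp90b1 with Pdia4 (0.78). The protein-coding genes outside the 10 with the pattern most like the mean of the members, among 8989 with a mean of at least 5 CPM, were Sfxn2, Usp2, Fbxo31, Atg4c and Ppp2r5e, with r from 0.91 to 0.92. Those most like Hspa5 were Pum3, Ncl, Cct4, Ppp4r4 and Ipo5, with r from 0.92 to 0.96. Those most like Dnajb9, a search added after its values were seen, were Grpel2, Cggbp1, Dnmt3a, Rad54l2 and Dusp11, with r from 0.95 to 0.96.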

How the data were processed

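The deposited files hold raw read counts per gene, not normalized by the authors, in the per-gene layout of STAR with build GRCm38, per the submitters' processing notes; aligner version and annotation are not given in the sources used here. Per the labels' protocols, cDNA was made with SMART-Seq v4 and Nextera XT. No molecular identifiers are named, so reads are not independent molecules. The unstranded counts were used, and the stranded columns, of near-equal totals, only as an alternative. Lines that name no gene stayed out; reads assigned to genes were 75.8% to 81.2% of those listed. Names and exon lengths come from GENCODE M21 (55227 of 55487 identifiers matched), and copies were searched with blastn 2.17.0 at 95% identity over at least 200 bases. Depth per library ranged from 22991598 to 52529278 counts.

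Tests used edgeR 4.0.16 (R 4.3.3): filterByExpr, TMM, robust quasi-likelihood F tests over all 12 libraries with 4 group means, two-sided, Benjamini-Hochberg over 13535 genes, called under 0.05. Standard errors are the log2 fold change over the root of F. CPM are counts scaled to library size after TMM. On simulated data for FAC against control (13273 genes, 200 of them shifted by 1 on the log2 scale), 78.5% were recovered and 4.27% of calls were false. Smaller changes, such as those of the members, were not simulated, nor were data with 36.6% of genes called. Same-numbered libraries did not deviate together: 3 of 18 pairs had a correlation over 0.1, so the numbers were not used as pairs.

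The members, lists and tests were chosen with earlier results of these data known. All 10 members and Ern1, Atf6 and Eif2ak3 are named throughout. From each other list the 2 largest changes per comparison, among called genes with a mean of at least 5 CPM, could be named. One item is not reported here. Alternatives were RLE and upper-quartile scaling, other filters, DESeq2 1.42.0, only the compared libraries, the replicate block, the stranded columns summed, thinning, correction for transcript GC content and length by offsets, and leaving out each library.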

Additional observations from a re-analysis of the deposited data

Results flagged for a closer look

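The effect of pretreatment on Dnajb9 differed between the scavengers by a direct test. Dnajb9 was at -0.18 (SE 0.0871) on the log2 scale in Lip-1+FAC against FAC and at -0.73 (SE 0.0881) in MT+FAC against FAC. The difference, MT+FAC against Lip-1+FAC, was -0.55 (SE 0.0885, edgeR adjusted p = 0.00252), with every MT+FAC library below every Lip-1+FAC library.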

How the results depend on the processing

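Of 1020 values of the members under alternatives, 905 kept their sign and side of the threshold, 46 were no longer called and 33 became called. Another 34, of 13 member values of at most 0.14 in size, changed sign but were called in neither fit. The other 2 changed sign and became called, both Edem1 in MT+FAC against control, called at -0.17 after correction for GC content and length (offsets), without and with the replicate block, beside 0.00. In FAC against control every alternative called 7 members. In MT+FAC against Lip-1+FAC, 2 members were called without the filter on low counts, 2 at a mean of at least 5 CPM and 3 by DESeq2. There, 4 other pathway genes were called without the filter, 2 by DESeq2 and 4 with only the compared libraries. In Lip-1+FAC against control, 4 members were called with the offsets, also with the block, and 3 to 5 when a library was left out. Over all genes, 4089 calls became 3767 with the offsets, 3747 with the block added and 3233 to 3876 with a library left out. In MT+FAC against control, 3 were called by upper-quartile scaling, at a mean of at least 5 CPM and with the offsets, 2 by DESeq2, with the stranded columns summed and with the offsets and block, 0 with only the compared libraries or thinned libraries, and 0 to 2 when a library was left out. Other pathway genes called there were 11 to 21, and 24 to 37 in MT+FAC against FAC, when a library was left out. Over all genes these fits called 1794 to 2830, beside 2684 with all libraries, and 4488 to 5112, beside 5541. The replicate block by itself gave 7, 3, 4, 1, 7 and 1 members called in the order of the report's comparisons, the same as without it, and 4 of 12 libraries correlated best with their own number. The causes were not tested. The lowest count of a member in a library was 223, for Sdf2l1. Amplified reads are not independent molecules, so counting error is not known from it, and 3 libraries per group limit the precision.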

Other observations

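Outside the 10 members, not every listed pathway gene had a promoter window to search. Windows were found for 5 of 7 sensors and processing enzymes, 17 of 22 chaperones and folding enzymes and 13 of 17 degradation genes. They were also found for 22 of 27 translocation, glycosylation and export genes and 8 of 8 genes of the PERK-ATF4 arm. Among the genes searched, Calr, Canx, Pdia6, Syvn1 and Derl3 held ERSE, and Dnajb11 held ERSE-II. These 6 genes were named for the element, not for their values. Dnajb11, a co-chaperone of BiP, was called lower in FAC against control, at -0.18 on the log2 scale. Calr, Canx, Pdia6 and Syvn1 were not called there, at -0.07, 0.01, -0.10 and 0.15, and Derl3 had too few counts to be tested. Against FAC, Calr, Canx and Pdia6 were higher in Lip-1+FAC, by 0.16, 0.25 and 0.15, and Syvn1 was lower, at -0.32. In MT+FAC against FAC, Calr and Pdia6 were higher, by 0.12 and 0.13, and Syvn1 was lower, at -0.20.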
